A study of Mus musculus with 8 samples.

Results

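The 35 genes described here encode nuclear-encoded subunits of respiratory complex I, the NADH:ubiquinone oxidoreductase of the inner mitochondrial membrane. They were chosen by a list of gene symbols, and all 35 were found among the 48709 genes of the count table. All 35 also passed the filter on low counts that left 14929 genes for testing, with between 39 and 2328 counts per gene and tumor.

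Complex I takes electrons from NADH, passes them along a flavin and a chain of iron-sulfur clusters to ubiquinone, and uses the energy released to pump protons out of the mitochondrial matrix. Its matrix arm holds the N module, where NADH is oxidized, and the Q module, where ubiquinone is reduced. Its membrane arm holds the proximal and distal pump modules. The catalytic core is built by a few core subunits, some encoded in the nucleus and others (the mt-Nd genes) in the mitochondrial genome. The remaining accessory subunits surround and stabilize that core.

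RNA was measured in 8 lung tumors of the *K* mouse model, in which Cre starts lung tumors, on a mixed B6J/129S4vJae background. In the study, all tumors were started by giving the mice LentiCRISPRv2Cre through the trachea, a lentivirus that supplies Cre, Cas9 and a guide RNA. The 4 *K-Ctrl* tumors received a guide against GFP as a control, and the 4 *K-Setd2KO* tumors a guide against *Setd2*, the gene for the enzyme that trimethylates lysine-36 of histone H3. Each sample was treated as a whole tumor, in which cells that took up no virus remain, and of age the study states only an upper limit at tumor initiation. The design label and the methods of the study describe tumors, and the label for RNA extraction speaks of cell lines. Nothing in the labels ties each tumor to a separate mouse, so the p-values measure the spread between these tumors.

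Library totals ran from 5806599 counts (*K-Setd2KO* replicate 4) up to 21290402 (*K-Ctrl* replicate 3). *Setd2* mRNA (chromosome 9) did not separate the groups, with a mean of 140 ± 8.81 CPM (read counts made comparable by dividing by the TMM-scaled library total) for *K-Ctrl* and one of 136 ± 15.5 CPM for *K-Setd2KO* (SD over 4 tumors; edgeR adjusted p 0.824), and a count table cannot show the edit itself. By expression of sex-linked genes, 1 *K-Ctrl* tumor (replicate 2) and 3 *K-Setd2KO* tumors (replicates 1, 2 and 4) were female. Chromosome 6 was shifted upward in replicates 1, 3 and 4 of *K-Setd2KO*, where its median gene lay 0.19, 0.20 and 0.24 above its mean over the 8 tumors on the log2 scale, against values from −0.17 to −0.10 in the other tumors.

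The comparison of *K-Setd2KO* with *K-Ctrl* addresses whether expression of the respiratory chain differs with *Setd2* inactivation. Of the 35 subunit genes, 3 were called higher in *K-Setd2KO* and 0 were called lower by edgeR's quasi-likelihood test at an adjusted p under 0.05. These were *Ndufv3*, *Ndufa5* and *Ndufb10*, and their share of 8.57% stands beside 4.97% called higher among all 14929 genes tested. In the lower direction 7.74% of all tested genes were called. At an unadjusted p under 0.05, 9 subunits were higher (25.7%, against 13.6% of all genes) and 0 were lower (against 16.3%). By DESeq2, 4 subunits were called higher, where 8.92% of all genes were, and 0 lower.

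Most of the subunits had a small positive difference. The log2 fold change was positive for 31 of the 35 genes (88.6%, against 52.7% of all tested genes), with *Ndufa13* among them at 0.00. Its median was 0.18, a 1.14-fold higher level, beside 0.03 over all tested genes. The values ran from −0.11 for *Ndufab1* to 0.65 for *Ndufb11*, so no subunit differed as much as 2-fold. The 95% interval included 0 for 26 subunits and lay wholly above 0 for 9. A 2-fold rise was outside the interval of 33 subunits, and a 1.5-fold rise outside that of 16. The groups were apart for 4 subunits, all higher in *K-Setd2KO* (11.4% of the subunits, against 9.06% of all genes that were apart in that direction), and for 0 subunits in the lower direction (against 11.2%).

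**Figure D1:**
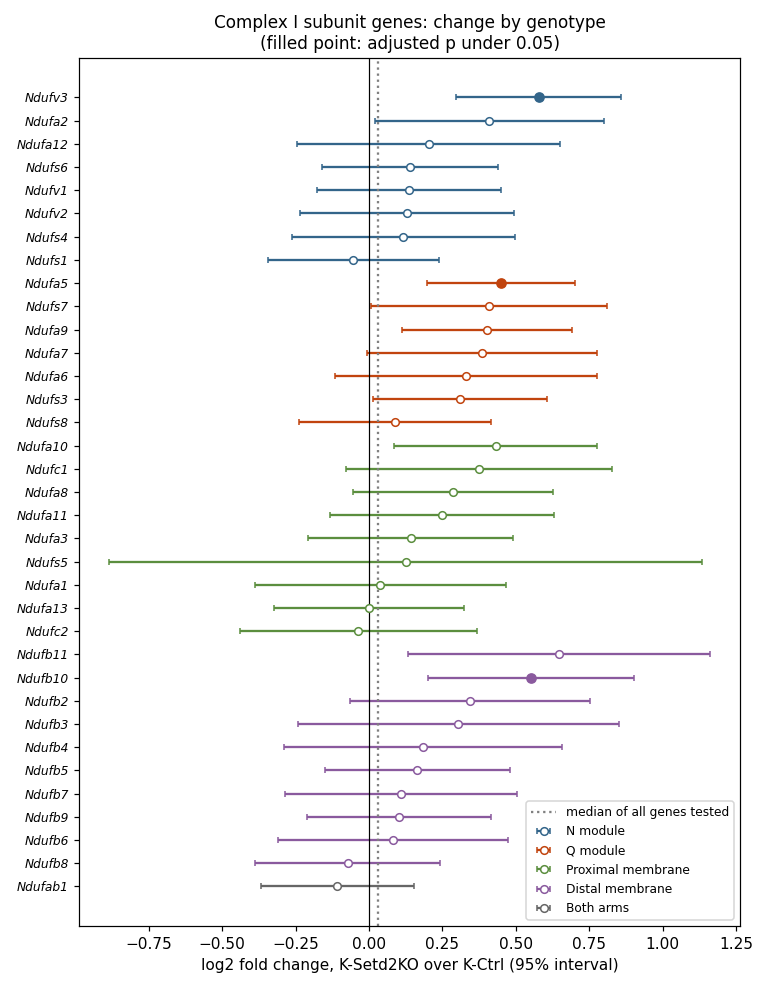
Log2 fold change of each of the 35 subunit genes in *K-Setd2KO* over *K-Ctrl*, with its 95% interval from edgeR, grouped by structural module along the vertical axis. Filled points mark the 3 genes with an adjusted p under 0.05, and 31 points lie at or to the right of 0, where the dotted line marks the median of all tested genes at 0.03.

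*Ndufv3* encodes an accessory subunit of the N module that sits beside the NADH-oxidizing core. Its level was 38.5, 35.1, 37.7 and 42.4 CPM in the control tumors, in order of replicate number as in all such lists, and 52.3, 63.9, 50.8 and 62.5 CPM in the *K-Setd2KO* tumors. Every *K-Setd2KO* tumor lay above every control. The gene (ENSMUSG00000024038.16, chromosome 17, 31520115 to 31531326, plus strand, GRCm38) rose with a log2 fold change of 0.58 (SE 0.125, edgeR adjusted p 0.0203). Leaving out *K-Ctrl* replicate 1, 2 or 3 moved the adjusted p to 0.0575, 0.0555 and 0.068, with log2 fold changes from 0.54 to 0.58. With sex as a term the adjusted p was 0.0653, and the call was also lost with the replicate number as a block. Log2 CPM differed by 0.36 between male tumors and by 0.75 between female tumors.

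*Ndufa5*, an accessory subunit of the Q module, had 48.8, 43.0, 44.7 and 49.2 CPM in the *K-Ctrl* tumors. In the *K-Setd2KO* tumors it had 63.6, 62.1, 70.6 and 57.2 CPM, again without overlap. The gene lies on chromosome 6 (ENSMUSG00000023089.12, 24518666 to 24528013, minus strand), which stood higher in *K-Setd2KO* replicates 1, 3 and 4 and not in replicate 2. The part of that shift in its value was not tested. *Ndufa5* rose with a log2 fold change of 0.45 (SE 0.111, edgeR adjusted p 0.0318), and 0.27 was the median over the 839 tested genes of that chromosome. The call was lost without *K-Ctrl* replicate 1, 2 or 3 (adjusted p 0.0705, 0.0798 and 0.101) and without *K-Setd2KO* replicate 1 or 3 (0.0633 and 0.073). It was also lost with no filter on low counts (0.0782), with an offset for length and GC content (0.0603) and with the replicate number as a block.

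*Ndufb10* encodes an accessory subunit of the distal pump module. The controls had 67.2, 46.9, 58.2 and 68.1 CPM, and the *K-Setd2KO* tumors 82.6, 107.3, 82.2 and 80.1 CPM. Replicate 2 was the lowest control and replicate 2 was also the highest *K-Setd2KO* tumor, and the groups did not overlap. *Ndufb10* (ENSMUSG00000040048.14, chromosome 17, 24722060 to 24724478, minus strand) rose with a log2 fold change of 0.55 (SE 0.156, edgeR adjusted p 0.0486). This call sat at the threshold and was lost when any single tumor was left out, with adjusted p from 0.0501 without *K-Ctrl* replicate 4 to 0.126 without *K-Ctrl* replicate 3. It was also lost with RLE factors (0.0508), with no filter (0.0605) and with a filter of at least 10 counts in every tumor (0.0552). The same held with a sex term (0.0766), with the length and GC offset (0.0597) and with the replicate number as a block.

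**Figure D2:**
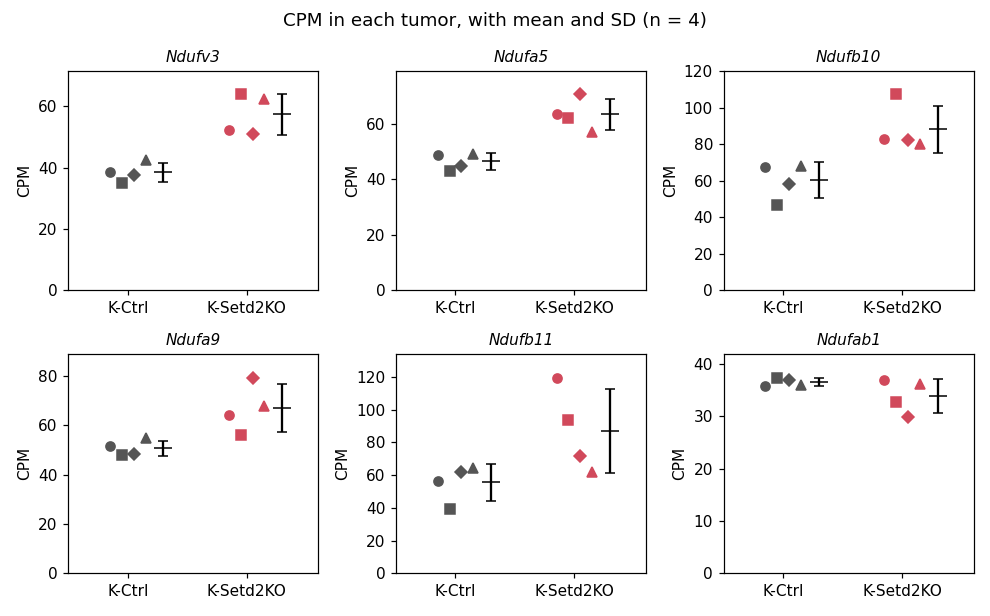
CPM of 6 subunit genes in each tumor (vertical axes start at 0), with circles, squares, diamonds and triangles for replicates 1 to 4 and a dash with its bar for the mean and SD (n = 4). The groups are apart for *Ndufv3*, *Ndufa5*, *Ndufb10* and *Ndufa9*, and overlap for *Ndufb11* and *Ndufab1*.

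The promoters of the 3 called genes are shown to set their motifs side by side, as the 250 bases before the start of transcription (RefSeq, GRCm38.p6, read 5′ to 3′ on the strand of the gene). Capitals mark the parts that match one of 5 short motifs, which were searched on both strands. The *Ndufv3* stretch is chr17:31519865-31520114 on the plus strand, that of *Ndufa5* is chr6:24527691-24527940 on the minus strand, and that of *Ndufb10* is chr17:24724424-24724673 on the minus strand. The start is the RefSeq start nearest to the 5′ end of the gene as counted. For *Ndufa5* the counted gene has its 5′ end at 24528013, so the whole printed stretch lies inside it. For *Ndufb10* that end is 24724478, so the stretch overlaps the counted gene in part.
Ndufv3: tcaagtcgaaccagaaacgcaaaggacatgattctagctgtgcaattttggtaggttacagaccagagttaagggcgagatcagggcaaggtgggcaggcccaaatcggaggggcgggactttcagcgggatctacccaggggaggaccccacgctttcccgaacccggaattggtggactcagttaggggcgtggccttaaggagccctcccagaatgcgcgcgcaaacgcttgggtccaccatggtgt
Ndufa5: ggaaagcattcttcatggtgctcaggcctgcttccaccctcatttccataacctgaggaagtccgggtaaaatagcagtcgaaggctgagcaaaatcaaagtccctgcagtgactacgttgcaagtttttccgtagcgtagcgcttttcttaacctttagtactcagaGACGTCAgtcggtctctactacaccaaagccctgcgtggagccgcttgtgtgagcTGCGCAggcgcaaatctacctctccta
Ndufb10: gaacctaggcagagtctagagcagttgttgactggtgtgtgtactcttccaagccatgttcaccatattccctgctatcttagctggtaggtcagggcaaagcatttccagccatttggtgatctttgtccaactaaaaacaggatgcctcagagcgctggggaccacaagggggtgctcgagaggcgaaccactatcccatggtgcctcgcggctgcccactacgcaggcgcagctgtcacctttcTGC

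In *Ndufa5* the motif of CREB-type factors (CRE core, TGACGTC) begins 82 bases before the start and that of NRF1, a regulator of nuclear genes for mitochondrial proteins (TGCGCA), 27 bases before it. In *Ndufb10* an NRF1 core begins 3 bases before the start, so its second part lies beyond the printed stretch. The *Ndufv3* window holds none of the motifs. Over the window from 250 bases before to 50 after the start, the NRF1 core was found in 10 of the 32 subunit genes with an entry (31.2%, against 8.79% of 27025 genes). The YY1 core (AAGATGG) was in 7 of them (21.9%, against 7.28%) and the CRE core in 4 (12.5%, against 3.60%). The ETS core (CCGGAAG) was in 4 (12.5%, against 9.93%) and a nuclear receptor motif (AAGGTCA) in 3 (9.38%, against 5.38%). No motif contains another. Subunit promoters had a median GC content of 59.2%, against 52.7% over all promoters, and these matches are counts of letters that were not tested.

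The N module holds the entry site for electrons. Its 8 listed genes had a median log2 fold change of 0.14, with 7 positive values and *Ndufv3* as the called member. *Ndufv1*, the core subunit that binds NADH and the flavin, had 46.9, 39.9, 44.2 and 50.6 CPM in the controls and 44.2, 57.7, 54.5 and 43.1 CPM in *K-Setd2KO*. *Ndufv2*, its core partner with an iron-sulfur cluster, had 65.2, 54.7, 64.6 and 69.0 CPM in the controls. In the *K-Setd2KO* tumors *Ndufv2* had 65.5, 86.4, 73.1 and 51.9 CPM. For both genes replicates 2 and 3 were the highest *K-Setd2KO* tumors, while replicate 4 was the lowest, and the groups overlapped. The log2 fold changes were 0.14 (SE 0.139) for *Ndufv1* and 0.13 (SE 0.162) for *Ndufv2*, with edgeR adjusted p of 0.547 and 0.636.

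*Ndufs1*, the largest core subunit, carries several of the iron-sulfur clusters. It was one of the 4 subunits with a negative log2 fold change (−0.05, SE 0.130). Its level was 71.2, 89.5, 75.2 and 88.3 CPM in the controls and 83.0, 66.3, 86.8 and 76.2 CPM in *K-Setd2KO*. It shares exon bases with genes on the opposite strand. *Ndufa2*, an accessory subunit, had 22.6, 29.8, 21.9 and 23.2 CPM in the controls and 32.6, 40.5, 30.1 and 26.0 CPM in the *K-Setd2KO* tumors. Only replicate 4 of the *K-Setd2KO* tumors fell below the highest control, and the log2 fold change of 0.41 did not pass the test (SE 0.173, edgeR adjusted p 0.15). The other N module genes, *Ndufs4*, *Ndufs6* and *Ndufa12*, had log2 fold changes of 0.12, 0.14 and 0.20.

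The Q module had the highest median of the modules, 0.38, and all 7 of its listed genes had positive values, from 0.09 to 0.45. It held 4 of the 9 subunits with an unadjusted p under 0.05, and 1 called gene, *Ndufa5*. Beside the counts of this and the other modules, 52.7% of all tested genes had a positive value. At that unadjusted p 13.6% of all genes were higher, and 4.97% were called higher. *Ndufs3*, a core subunit, had 25.5, 31.7, 30.1 and 27.0 CPM in the controls and 35.7, 35.1, 39.8 and 31.1 CPM in *K-Setd2KO* (log2 fold change 0.31, SE 0.131, edgeR adjusted p 0.15). *Ndufs7*, the core subunit with the last iron-sulfur cluster before ubiquinone, had 24.4, 20.9, 23.1 and 28.0 CPM in the controls. It had 31.0, 37.9, 35.7 and 23.1 CPM in the *K-Setd2KO* tumors (log2 fold change 0.41, SE 0.178, edgeR adjusted p 0.161). In both genes *K-Setd2KO* replicates 1 to 3 stood above every control and replicate 4 did not.

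*Ndufs8*, also a core subunit, showed no such separation. Its level was 20.9, 28.2, 27.5 and 24.9 CPM in the controls and 28.4, 26.8, 29.2 and 23.4 CPM in *K-Setd2KO* (log2 fold change 0.09, SE 0.145). *Ndufa9*, an accessory subunit next to the ubiquinone site, lies on chromosome 6 like *Ndufa5*. The controls had 51.5, 48.0, 48.3 and 54.8 CPM and the *K-Setd2KO* tumors 64.3, 56.1, 79.4 and 67.9 CPM. Its groups did not overlap, and the log2 fold change of 0.40 missed the threshold (SE 0.129, edgeR adjusted p 0.0707). *Ndufa9* was called by DESeq2 (adjusted p 0.0318) and by edgeR without *K-Setd2KO* replicate 2 (0.0383). That replicate was the *K-Setd2KO* tumor without the upward shift of chromosome 6, whose tested genes had a median log2 fold change of 0.27. The part of that shift in the *Ndufa9* value was not tested.

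*Ndufa6*, an accessory Q module subunit of the LYR protein family, had the highest level per length of the 35 genes, a mean of 121.9 RPKM (CPM divided by the summed exon length in kilobases). Its CPM values were 65.2, 48.0, 64.1 and 65.0 in the controls and 80.0, 94.6, 80.0 and 49.3 in *K-Setd2KO*, so replicate 4 again lay among the controls (log2 fold change 0.33, SE 0.198, edgeR adjusted p 0.299). *Ndufa7* had a log2 fold change of 0.38 and was called when *K-Setd2KO* replicate 4 was left out (edgeR adjusted p 0.0457). Counting *Ndufa6* and *Ndufa7* with the N module left medians of 0.17 for N and 0.40 for Q. The difference between modules was not tested.

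In the proximal pump module the median was 0.14 over 9 genes, 8 of them positive, and 0 were called. *Ndufa10*, an accessory subunit of this module, had the lowest unadjusted p in it. Its level was 64.0, 88.4, 72.5 and 67.6 CPM in the controls and 87.4, 120.0, 102.3 and 84.5 CPM in *K-Setd2KO*, where the high control replicate 2 overlapped (log2 fold change 0.43, SE 0.153, edgeR adjusted p 0.0951). *Ndufc2*, an accessory subunit at the base of the membrane arm, had a negative value of −0.04 (SE 0.179). It had 64.1, 53.0, 59.8 and 52.4 CPM in the controls and 54.1, 69.0, 61.8 and 38.2 CPM in the *K-Setd2KO* tumors, among which replicate 4 was far below the rest.

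*Ndufa1*, a small subunit encoded on the X chromosome, had 29.2, 27.6, 29.2 and 24.1 CPM in the controls and 36.1, 25.9, 31.2 and 19.7 CPM in *K-Setd2KO* (log2 fold change 0.04, SE 0.190). The remaining proximal genes had log2 fold changes of 0.14 for *Ndufa3*, 0.29 for *Ndufa8*, 0.25 for *Ndufa11*, 0.00 for *Ndufa13* and 0.37 for *Ndufc1*.

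*Ndufs5*, an accessory subunit on the intermembrane face, was the most variable of all. Its CPM was 9.7, 18.1, 7.2 and 17.4 in the controls and 20.2, 10.8, 5.5 and 20.5 in *K-Setd2KO*. Its processed copy BC002163, which is 99.4% identical over 319 aligned bases, had 16.1, 4.9, 13.0 and 9.8 CPM in the controls and 7.0, 23.6, 12.4 and 7.0 CPM in the *K-Setd2KO* tumors. The copy was high where *Ndufs5* was low. Summed, the pair varied less over the 8 tumors, with a coefficient of variation of 20.03%, against 44.2% for *Ndufs5* and 51.6% for BC002163 alone. The log2 fold change was 0.13 (SE 0.447) for *Ndufs5* and 0.16 (SE 0.204, edgeR adjusted p 0.646) for the sum, a count added after the values were seen. With a sex term the value of *Ndufs5* alone became −0.54. How reads were shared between the gene and its copy is not given in the sources used here. *Ndufa12* has a similar copy, Gm15920, with 17.4% as many counts, and their sum had a log2 fold change of 0.28 (SE 0.185).

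**Figure D3:**
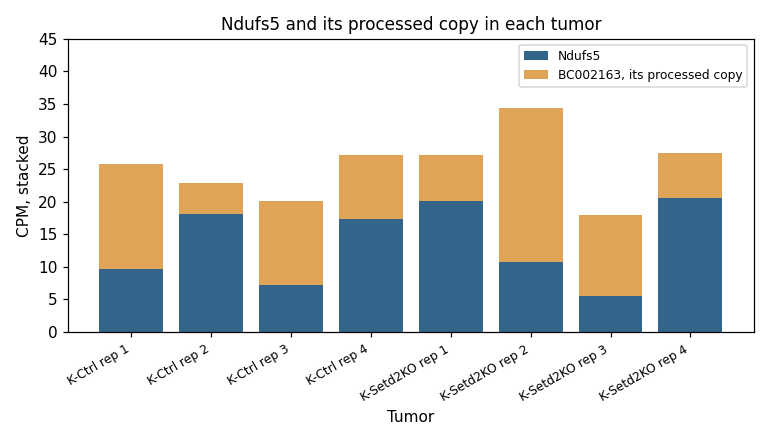
CPM of *Ndufs5* (lower part of each bar) and of its processed copy BC002163 (upper part) in each of the 8 tumors, stacked from 0. *Ndufs5* ranges from 5.5 to 20.5 CPM and the copy from 4.9 to 23.6 CPM, while their sum stays between 17.9 and 34.3 CPM.

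In the distal pump module the median was 0.17 over 10 genes, 9 of them positive, with *Ndufb10* called. *Ndufb11*, an accessory subunit encoded on the X chromosome, had the highest log2 fold change of the 35 genes. Its level was 56.3, 39.6, 61.9 and 64.3 CPM in the controls and 119.6, 93.7, 71.9 and 62.0 CPM in *K-Setd2KO*. Replicate 4 lay below the highest control, and the value of 0.65 did not pass the test (SE 0.228, edgeR adjusted p 0.0933). Between males (3 *K-Ctrl*, 1 *K-Setd2KO*) *Ndufb11* differed by 0.24 in log2 CPM, and between females (1 and 3) by 1.16. With sex as a term the log2 fold change was 0.73 (edgeR adjusted p 0.172).

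*Ndufb2*, also accessory, had the lowest level per length, 2.84 RPKM, and is the third subunit gene on chromosome 6. It shares exon bases with *Braf* (146) and Gm16272 (156) on the opposite strand and with Gm42420 (145) on the same strand. It had 17.2, 12.2, 14.6 and 12.2 CPM in the controls and 16.5, 14.8, 19.6 and 20.5 CPM in the *K-Setd2KO* tumors (log2 fold change 0.34, SE 0.182, edgeR adjusted p 0.240). *Ndufb8* was the distal gene with a negative value (−0.07, SE 0.140), at 40.7, 31.2, 37.1 and 45.9 CPM in the controls and 36.9, 38.4, 38.0 and 33.9 CPM in *K-Setd2KO*. It shares 134 exon bases with Gm20538 on the same strand. The others had log2 fold changes of 0.30 for *Ndufb3*, 0.18 for *Ndufb4*, 0.16 for *Ndufb5*, 0.08 for *Ndufb6*, 0.11 for *Ndufb7* and 0.10 for *Ndufb9*.

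*Ndufab1*, the mitochondrial acyl carrier protein, sits in both arms and also serves mitochondrial fatty acid synthesis. It had the lowest log2 fold change, −0.11 (SE 0.116, edgeR adjusted p 0.569). The controls were close together at 35.7, 37.4, 37.0 and 36.1 CPM, and the *K-Setd2KO* tumors had 36.9, 32.7, 29.9 and 36.1 CPM. Replicates 2 and 3 of *K-Setd2KO*, which were high for most subunits, were the low tumors here.

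The difference between the groups was uneven among the *K-Setd2KO* tumors. A score was computed for each tumor as the mean over the 35 genes of log2 CPM after centering each gene on its mean over the 8 tumors. It was −0.12, −0.15, −0.10 and −0.06 in the controls. The *K-Setd2KO* tumors had scores of 0.19, 0.23, 0.11 and −0.10. The first 3 *K-Setd2KO* tumors stood above all controls, and replicate 4 lay inside the control range. The mean difference of 0.21 became 0.28 without that tumor.

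The same tumor stood apart gene by gene. *K-Setd2KO* replicate 4 had the lowest level of its group for 25 of the 35 subunits (71.4%, against 29.2% of all tested genes). Replicates 1, 2 and 3 lay above every control for 24, 25 and 23 subunits, where 28.3%, 31.3% and 34.1% of all tested genes did. Replicate 4 lay above every control for 8 subunits (22.9%, against 32.4% of all genes), and below every control for 8 (22.9%, against 33.3% of all genes). For 16 subunits (45.7%, against 12.5% of all genes) replicates 1 to 3 were all above every control. Among these 16, replicate 4 was also above the controls in 4, within their range in 7 and below them in 5. Examples of those below are *Ndufa7*, with 20.9 CPM in replicate 4 beside 30.3 to 35.6 CPM in replicates 1 to 3, and *Ndufb3*, with 23.8 CPM beside 40.6 to 55.1 CPM.

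**Figure D4:**
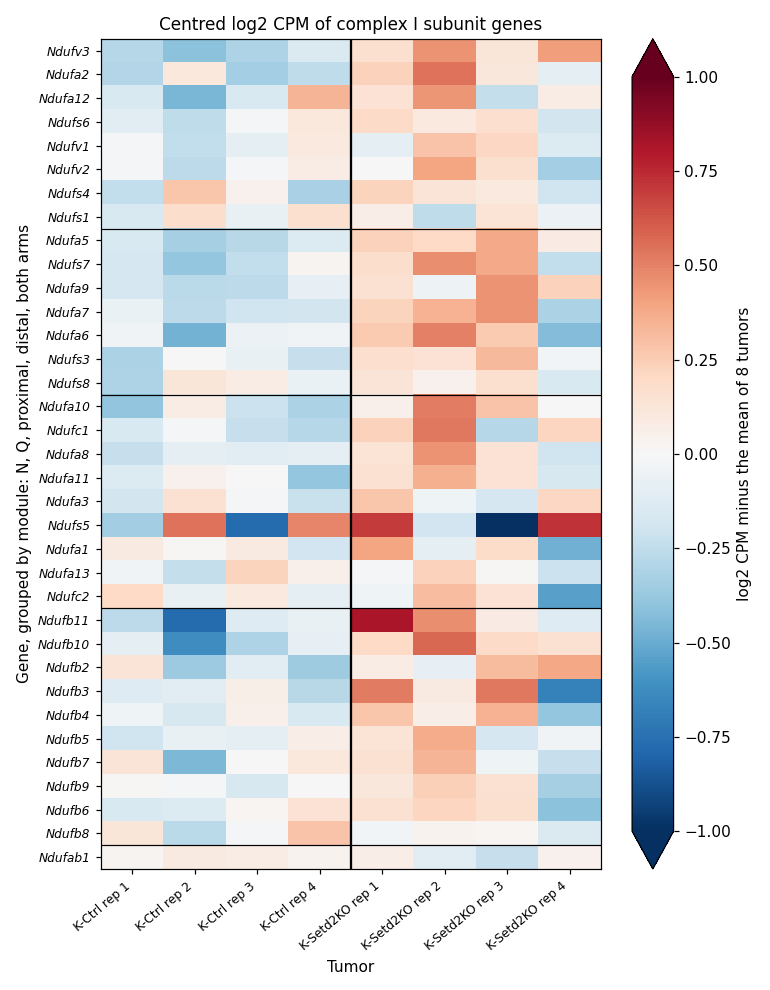
Log2 CPM of the 35 subunit genes (rows, grouped by module) in each of the 8 tumors (columns), after subtracting the mean of the 8 tumors for each gene, with red for higher and blue for lower values and the scale ending at −1 and 1. *K-Setd2KO* replicates 1 to 3 are mostly red and replicate 4, the lowest of its group for 25 of 35 genes, is mostly blue, with *Ndufs5* running against its neighbors.

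*K-Setd2KO* replicate 4 was also the shallowest library, with 7736 counts over the 35 genes against 14914 to 31292 in the others. After all libraries were thinned to its depth, 3 subunits were called higher, where 4.63% of all genes were, and the score difference was 0.20. Without replicate 4 the edgeR fit called 3 subunits higher (*Ndufv3*, *Ndufa5* and *Ndufa7*), where 3.35% of all genes were called higher, and the median log2 fold change was 0.24. With the 3 subunits on chromosome 6 set aside, a view added after the values were seen, the other 32 had a median of 0.15, with 2 called. These values are from the fit of all tumors, where 4.97% of all genes were called higher. The score of those 32 was −0.13 in replicate 4 and 0.19, 0.25 and 0.08 in replicates 1 to 3.

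Sex was unevenly spread over the groups, so the score was compared within each sex. The difference was 0.20 between male tumors (3 *K-Ctrl*, 1 *K-Setd2KO*) and 0.25 between female tumors (1 and 3). A fit with sex as a term called 1 subunit, *Ndufa5*, where 3.03% of all genes were called higher, and had a median of 0.23. Subunit genes were shorter than other genes (median summed exon length 1334 against 3847 bases), with a median GC content of 51.3% against 49.5%. With a length and GC offset the median was 0.14 and 1 subunit, *Ndufv3*, was called, where 5.61% of all genes were called higher.

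Markers of other cell types were compared beside these differences. Of 6 pan-leukocyte markers 4 were called lower (median log2 fold change −1.54), and their summed level was 971 to 1745 CPM in the controls and 517 to 746 CPM in *K-Setd2KO*. Macrophage markers summed to 424 to 1422 CPM against 145 to 290 CPM (4 of 5 called lower), and endothelial markers to 392 to 1427 CPM against 148 to 379 CPM (1 of 5 called lower). Fibroblast markers summed to 496 to 1120 CPM against 141 to 583 CPM (1 of 5), T cell markers to 40 to 94 CPM against 7 to 31 CPM (1 of 5) and B cell markers to 10 to 49 CPM against 13 to 22 CPM (0 of 4). *Dcn*, a fibroblast marker, and *Cd79b*, a B cell marker, had positive log2 fold changes (0.28 and 0.40) and did not pass the test (edgeR adjusted p 0.503 and 0.389).

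Epithelial markers summed to 1506 to 2290 CPM in the controls and 1967 to 2433 CPM in *K-Setd2KO*, with *Epcam* and *Krt18* called higher among 6. Of the other epithelial markers, *Krt8* and *Cldn7* had log2 fold changes of 0.44 and 0.53, *Cdh1* −0.01 and *Krt19* −0.56, and none of them passed the test (edgeR adjusted p from 0.0820 to 0.970). Alveolar type 2 markers, the surfactant genes of lung epithelium among them, were high in both groups (39626 to 59230 against 47807 to 66604 CPM), with *Sftpb* of chromosome 6 called higher among 6. The 5 proliferation markers all had negative values (median −0.94), and 1, *Mki67*, was called lower. They summed to 176 to 213 CPM in the controls and to 131, 51.6, 52.0 and 148 CPM in *K-Setd2KO* replicates 1 to 4. Of 4 tested cardiac markers 1, *Actc1*, was called lower. In whole tumors, fewer cells of a type and less RNA per cell cannot be told apart. Over *K-Setd2KO* replicates 1 to 4 the pan-leukocyte markers summed to 721, 517, 571 and 746 CPM (scores −0.34, −0.83, −0.89 and −0.83). The macrophage markers summed to 248, 290.0, 199 and 145 CPM, and the T cell markers to 30.7, 9.10, 7.48 and 10.6 CPM. *Lcp1*, a marker that was not called (edgeR adjusted p 0.130), made up 522, 349, 407 and 600.4 CPM of the pan-leukocyte sums, and the other 5 markers summed to 199.8, 168, 164 and 145 CPM. Endothelial markers summed to 379, 299, 186 and 148 CPM, and fibroblast markers to 583, 333, 141 and 555 CPM in the same order. The part of these cell types in the subunit differences was not tested.

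The 7 mitochondrially encoded subunits did not have the positive median of the nuclear ones, and this difference was not tested. Their median log2 fold change was −0.09, with 2 positive and 5 negative values, and 0 were called by edgeR or had an unadjusted p under 0.05. Their score was 0.34, 0.08, −0.11 and 0.12 in *K-Ctrl* and −0.57, 0.18, −0.22 and 0.20 in *K-Setd2KO*. This score gives equal weight to 2 genes with very few reads, *mt-Nd3* and *mt-Nd4l*. Over the other 5 genes it was 0.39, −0.21, −0.01 and 0.06 in the controls. In the *K-Setd2KO* tumors it was −0.24, 0.27, −0.08 and −0.18, so the order of the tumors changed with those 2 genes, and replicate 4 was no longer the highest of its group. The extremes were *mt-Nd3* (0.08, SE 0.761) and *mt-Nd4l* (−0.60, SE 0.535), both below 5 CPM in every tumor. The other 5 mt-Nd genes had 1588 CPM or more in every tumor. Without *K-Ctrl* replicate 1 the median turned to 0.06.

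**Figure D5:**
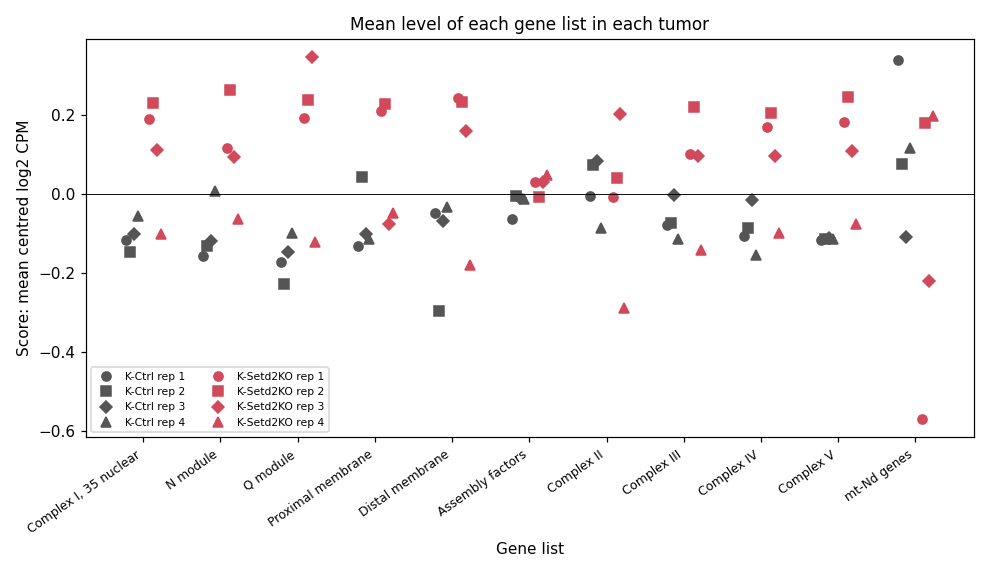
Score of each gene list (mean log2 CPM after centering each gene) in each tumor, with gray for *K-Ctrl*, red for *K-Setd2KO* and a symbol for each replicate number. For the 35 nuclear complex I genes and for complexes III, IV and V, *K-Setd2KO* replicates 1 to 3 lie above all controls. Replicate 4 (red triangle) lies within the control range for complexes I and IV, below it for complex III (−0.14) and above it for complex V (−0.08). The mt-Nd score includes *mt-Nd3* and *mt-Nd4l*, both below 5 CPM in every tumor, which move its order.

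Proteins that build complex I without staying in it were examined next. Of 18 listed assembly factors 17 were tested, with 9 positive and 8 negative values, a median of 0.05 and 0 called. The scores of the *K-Setd2KO* tumors ran from −0.01 to 0.05. For the other respiratory complexes, the medians were 0.00 for complex II (0 of 4 called), 0.11 for complex III (0 of 9), 0.19 for complex IV (1 of 11 called higher) and 0.18 for complex V, the ATP synthase (1 of 15). The called genes were *Ndufa4*, which was once counted with complex I and is now placed in complex IV, and *Atp5g3*, a subunit of the ATP synthase rotor ring. *Ndufa4* (chromosome 6) rose from 74.1 to 101.6 CPM (0.46 on the log2 scale, SE 0.130, edgeR adjusted p 0.0495) and *Atp5g3* from 108.8 to 155.2 CPM (0.51, SE 0.132, edgeR adjusted p 0.0360). *K-Setd2KO* replicate 4 had the lowest score of its group for complexes I, II, III, IV and V. Differences between the complexes were not tested.

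By level per length, the 35 subunit genes spanned a 43.0-fold range, from the 2.84 RPKM of *Ndufb2* to the 121.9 RPKM of *Ndufa6*. *Ndufb11* (78.4), *Ndufc2* (75.0) and *Ndufb9* (73.5 RPKM) followed at the top, and *Ndufa11* (6.42) and *Ndufab1* (5.12 RPKM) stood next to the bottom. Of the 34 neighboring pairs in this order, 33 overlapped within their spread over the tumors, and the pair that did not was *Ndufab1* and *Ndufb2*. Their median of 25.8 RPKM compares with 5.42 RPKM over all tested genes. The lengths are summed exons of all annotated transcripts, so a gene with long rarely used exons has a low value on this scale. The 35 genes lie on 15 chromosomes, 14 share exon bases with another annotated gene, 13 of them on the opposite strand, and 9 have a processed copy that is at least 95% identical. Whether counting used the read strand is not given in the sources used here.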

How the data were processed

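The authors deposited 1 table of raw counts per gene, 1 column per tumor, with no normalization and GRCm38 coordinates. Per the labels, the TruSeq Stranded mRNA kit was used, and the submitters' processing notes name STAR 2.5.2b, featureCounts 1.5.0-p1 and GRCm38.p4. The annotation release, the strand setting and the handling of reads with several matches are not given in the sources used here.

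GENCODE M21 supplied symbols, gene types and GC content (48349 of 48709 identifiers matched), and RefSeq the promoters. The genotypes were compared with edgeR 4.0.16 under R 4.3.3 (filterByExpr, TMM, robust quasi-likelihood fit and test on genotype alone) with Benjamini-Hochberg adjustment over 14929 genes and a threshold of 0.05. The study used DESeq2. Standard errors were derived from the fold change and F. CPM used TMM-scaled totals, RPKM the deposited summed exon length, and log2 CPM a prior count of 2. The length and GC offset was a resistant loess, since an ordinary smooth also moved the median of all genes. Fits were tested on 1 simulated data set. In it the share of false calls stayed below the threshold with edgeR and exceeded it with limma-voom and, by more, with DESeq2. Its counts were drawn with edgeR's own dispersion estimates, so it cannot rank the tests on these data. Totals ran from 5806599 to 21290402 counts, so 3 counts stood for 0.138 to 0.513 CPM. The lowest chi-square between tumors of a group was 30.5 per degree of freedom, so none were treated as copies.

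The members and lists were chosen with earlier results of these data known. Values in every tumor were given for called members, members with an unadjusted p under 0.05, the listed core subunits, members on chromosomes 6 and X, the highest and lowest level per length, and negative log2 fold changes. *Ndufs5*, *Ndufa7*, *Ndufb3* and the processed copies were singled out after their values were seen. Markers were fixed by cell type. Alternatives were RLE, upper-quartile or no scaling factors, no filter, at least 10 counts in every tumor, DESeq2 1.42.0, limma voom 3.58.1, a replicate block, a sex term, the offset, thinning, *Ndufa6* and *Ndufa7* placed in the N module, and leaving out each tumor. No member was left out.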

Additional observations from a re-analysis of the deposited data

Results flagged for a closer look

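In 82 groups of 4 values (each of the 35 genes and 6 scores in each genotype), 6 held 1 tumor far from the other 3 by Dixon's test, where chance flags about 1 group in 20, or 4.1 here. In *K-Ctrl*, *Ndufa2* was at 29.8 CPM in replicate 2, above 21.9 to 23.2 CPM in the others. *Ndufa6* was at 48.0 CPM in the same tumor, below 64.1 to 65.2 CPM, and the distal membrane score of that tumor was −0.30, below −0.07 to −0.03. *Ndufa8* was at 25.2 CPM in *K-Ctrl* replicate 1, below 27.6 to 27.8 CPM. In *K-Setd2KO*, *Ndufb6* was at 14.2 CPM in replicate 4, below 20.95 to 21.95 CPM. *Ndufb10* was at 107.3 CPM in replicate 2, above 80.1 to 82.6 CPM. Causes were not tested.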

How the results depend on the processing

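The count of subunits called lower was 0 under all alternatives, and the median log2 fold change stayed positive, from 0.14 to 0.24. The count called higher, 3, stood beside 4.97% of all genes called higher. It became 1 with no filter (2.16% of all genes), 1 with a sex term (3.03%), 1 with the length and GC offset (5.61%), 2 with RLE factors (4.90%), 2 when every tumor had to reach 10 counts (5.29%) and 4 with DESeq2 (8.92%). When 1 tumor was left out it ran from 0 to 3 (1.49% to 5.67%), with 0 without *K-Ctrl* replicate 1, 2 or 3 (1.80%, 2.19% and 1.49%) and 1 without *K-Setd2KO* replicate 1 or 3 (3.32% and 2.41%). The count over all genes in both directions, 1897 (742 higher and 1155 lower), became 3194 with DESeq2, 1237 with a sex term and 763 to 2058 when 1 tumor was left out (938, 1126 and 763 without *K-Ctrl* replicate 1, 2 or 3, and 1011 without *K-Setd2KO* replicate 3). Without *K-Ctrl* replicate 1, 2 or 3 the higher calls were 270, 336 and 224 and the lower calls 668, 790 and 539. The proximal membrane median ran from 0.068 to 0.30 when 1 tumor was left out. With the replicate number as a block, 0 subunits were called, where 2.70% of all genes were called higher, and the median was 0.16. Deviations of same-numbered tumors correlated at −0.07, −0.03, 0.19 and −0.02, and the value of replicate 3 was the highest among all pairs across the groups. Whether same-numbered tumors share a batch was not tested.

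The sign turned for genes with values near 0. *Ndufs5* moved farthest, from 0.13 (SE 0.447) to −0.54 with a sex term. *Ndufa13* became −0.0035 with RLE factors, −0.0021 with DESeq2, −0.050 with library size alone, −0.032 with at least 10 counts, −0.16 with the length and GC offset and −0.035 when thinned. With the offset, *Ndufs1* became 0.030, *Ndufs8* −0.065, *Ndufa1* −0.080, *Ndufb6* −0.041, *Ndufb9* −0.076 and *Setd2* 0.077. With a sex term, *Ndufa3* became −0.013, *Ndufc2* 0.049, *Ndufs5* −0.54 and *Ndufb8* 0.053. *Ndufa1* was −0.012 with library size alone. When 1 tumor was left out, values ran from −0.087 to 0.076 for *Ndufa13*, −0.10 to 0.17 for *Ndufa1*, −0.16 to 0.099 for *Ndufc2*, −0.099 to 0.40 for *Ndufs5*, −0.17 to 0.019 for *Ndufb8*, −0.11 to 0.012 for *Ndufs1*, −0.0072 to 0.19 for *Ndufb7* and −0.00094 to 0.24 for *Ndufv2*. The causes were not tested. Every member had 39 counts or more in every tumor, and the 4 tumors per group limit the precision.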
